A study of Sus scrofa with 12 samples.

Results

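Assembled transcripts that lie wholly inside annotated introns were characterised in the loin muscle (*Longissimus dorsi*) of Iberian pigs. A transcript was a member when it overlapped no exon of the Sscrofa11.1 annotation on its own strand, or on either strand where the assembler gave it none, and when all of it lay within 1 annotated intron. Of the 339850 transcripts assembled on chromosomes in 12 libraries, 42702 (12.6%) met this rule. They merged into 12325 loci, a locus being a stretch of overlapping intronic transcripts from any library, and lay in the introns of 3840 host genes.

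The study compared 2 groups of castrated purebred males that had been fattened outdoors on acorns and grass. They were picked from the extremes of the estimated breeding values for shear force of cooked meat, a measure of toughness. The Tough group held 6 animals with a shear force of 7.32 to 10.63 kg/cm2, and the Tender group held 6 animals with 2.18 to 3.43 kg/cm2; 1 further Tender animal of the study was not analysed here. Each library came from 1 animal, and animals sharing a parent had been avoided. Whole muscle was sampled, so that fewer cells of a type and less RNA per cell cannot be told apart.

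Introns are transcribed with the rest of the gene and are removed by splicing. RNA from an intron can therefore be seen in a total RNA sample as part of a not yet spliced precursor, as an intron kept in a message, as the lariat left after splicing, or as an independent transcript such as an antisense RNA or a microRNA precursor. Introns also hold mobile elements, many of which end in a run of A, and inserted copies of other genes. Skeletal muscle expresses some genes with very long introns, among them dystrophin.

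Sequences of 3 kinds are shown from intronic loci of high level. Some other loci of high level, such as that in intron 1 of HSPA1L, were of none of these kinds. The first kind is shown because it held the highest FPKM values (fragments scaled to transcript length and to the mapped fragments of the library). These were short loci around a run of A or T, which is in capitals; all are on the plus strand of Sscrofa11.1.
GPX6 intron 2, chr7:22260539-22260609: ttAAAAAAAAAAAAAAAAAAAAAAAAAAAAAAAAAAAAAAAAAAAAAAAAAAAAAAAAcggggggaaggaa
ESX1 intron 2, chrX:85002698-85002752: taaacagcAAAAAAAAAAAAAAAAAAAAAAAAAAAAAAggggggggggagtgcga
PLCB1 intron 1, chr17:17162838-17162897: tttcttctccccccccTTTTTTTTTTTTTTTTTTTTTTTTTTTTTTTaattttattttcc

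The second kind is shown because it held most of the fragments of the intronic transcripts. It consisted of 2 loci of mixed sequence, of which the first 300 bases on the plus strand are given, with no part in capitals.
LRRC43 intron 12, chr14:30530525-30530824: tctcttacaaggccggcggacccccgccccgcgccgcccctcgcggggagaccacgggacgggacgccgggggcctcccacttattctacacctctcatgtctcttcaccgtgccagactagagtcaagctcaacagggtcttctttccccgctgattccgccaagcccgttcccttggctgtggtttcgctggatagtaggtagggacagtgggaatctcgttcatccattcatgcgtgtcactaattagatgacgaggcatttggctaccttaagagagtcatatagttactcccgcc
LOC106504325 intron 2, chr7:10867705-10868004: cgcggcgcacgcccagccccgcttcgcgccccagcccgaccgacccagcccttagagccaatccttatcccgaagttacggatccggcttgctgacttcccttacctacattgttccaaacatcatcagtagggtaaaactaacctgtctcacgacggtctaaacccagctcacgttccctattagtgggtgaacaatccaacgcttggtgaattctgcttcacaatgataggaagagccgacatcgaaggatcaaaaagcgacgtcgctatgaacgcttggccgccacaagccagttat

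The third kind aligned to an annotated gene or to the mitochondrial genome, where copies were sought. The locus in intron 2 of SPOCK3 is shown because 185 of its 191 bases aligned to the mitochondrial genome with an identity of 96.8%; the capitals mark only its longest run of A or T.
SPOCK3 intron 2, chr14:21808481-21808671: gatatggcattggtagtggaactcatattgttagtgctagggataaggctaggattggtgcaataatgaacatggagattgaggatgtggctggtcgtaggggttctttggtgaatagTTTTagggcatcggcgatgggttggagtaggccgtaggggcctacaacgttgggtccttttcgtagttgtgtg

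The number of intronic transcripts varied widely between animals within both groups. In the Tough libraries 1 to 6 it was 3140, 3724, 3301, 5166, 2931 and 4794. In the Tender libraries 1 to 6 it was 3462, 2242, 2403, 4026, 2100 and 5413. Both the lowest and the highest count were in the Tender group, and the groups overlapped. The mean was 3843 ± 926 (SD, n = 6) in Tough and 3274 ± 1294 (SD, n = 6) in Tender, with an exact permutation p of 0.394 and an adjusted p of 0.498 over the 5 library measures compared. Each library held intronic transcripts in 974 to 1722 host genes.

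Intronic transcripts were short, weak and almost all unspliced. Their length ran from 42 to 17847 bases with a median of 889 bases, and the median per library was 846 to 938 bases. The median per library of the FPKM was 0.354 to 0.524. A transcript rested on a median of 16 fragments, as estimated from the confidence bounds in the files, with the quartiles at 11.9 and 25.8. Neither the median length (891 ± 30.5 bases in Tough and 876 ± 23.7 bases in Tender, exact permutation p = 0.355) nor the median FPKM (0.434 ± 0.0542 and 0.471 ± 0.0437, exact permutation p = 0.212) differed between the groups by more than the spread between animals, each group having n = 6. The adjusted p was 0.498 for both. These 3 measures are plotted for every library.

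**Figure D1:**
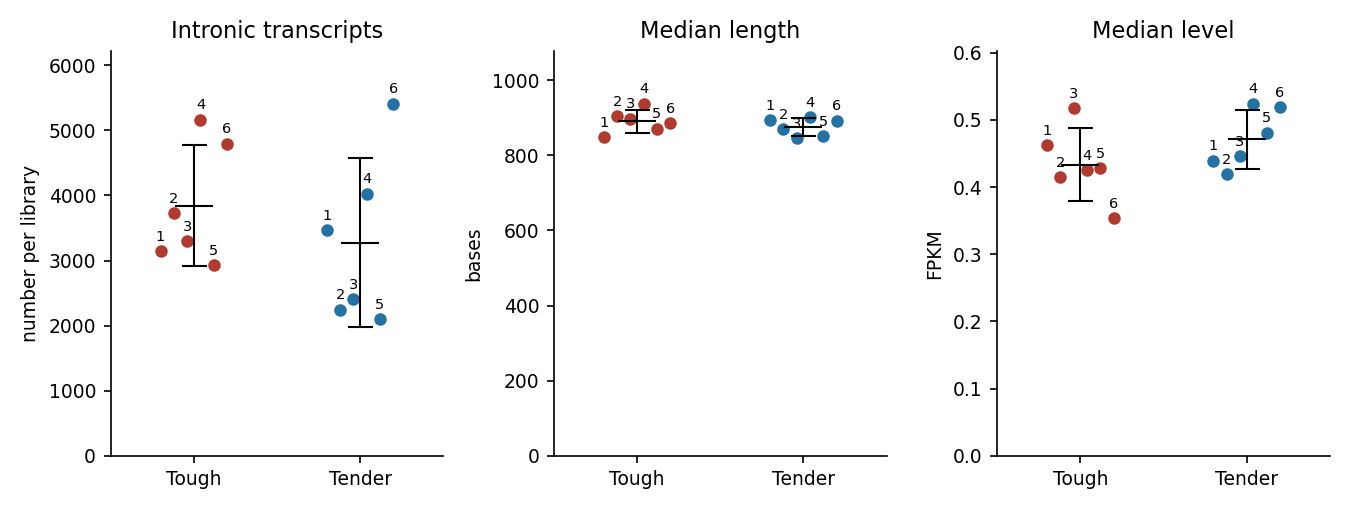
Number of intronic transcripts, their median length in bases and their median FPKM in each library; points are animals numbered within their group, and bars are the mean ± SD of 6 libraries. The 2 groups overlap in all 3 panels, and Tender 6 and Tender 5 hold the highest (5413) and the lowest (2100) number.

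The estimated depth of the libraries was 39.9 (Tender 4) to 63.3 (Tough 6) times 10 to the sixth fragments. Across the 12 libraries the number of intronic transcripts had a Pearson r of 0.116 (permutation p = 0.728) and a Spearman rho of -0.0559 (permutation p = 0.871) with this depth. Within the groups the r with depth was 0.553 in Tough (exact permutation p = 0.297, n = 6) and -0.562 in Tender (exact permutation p = 0.222, n = 6). It had an r of 0.768 (permutation p = 0.00498, adjusted p = 0.0149 over 3 relations) and a rho of 0.776 (permutation p = 0.00456, adjusted p = 0.0137) with the number of intergenic transcripts, which was 1745 to 2564. Without the 2 libraries farthest from the median of the intergenic number the r was 0.759. Within the groups the r was 0.499 in Tough (exact permutation p = 0.299, n = 6) and 0.865 in Tender (exact permutation p = 0.0347, n = 6), so that it was past 0.05 in 1 group and not in the other, and the difference between them was not tested. With the number of transcripts that overlapped an exon the r was 0.0887 (permutation p = 0.789) and the rho 0.133 (permutation p = 0.683).

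Most intronic transcripts had no strand. Cufflinks gave no strand to 37745 of them (88.4%), while 1729 lay on the strand of the host gene and 3228 on the opposite strand. There were 593 that overlapped an annotated exon on the opposite strand, and 2080 that lay in introns of more than 1 gene. Protein-coding hosts held 90.01% and lncRNA hosts 9.34%. Without a strand, RNA of the host and of an antisense gene cannot be told apart for the transcripts that lack one.

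Compared with unspliced intergenic transcripts, which are the most similar class, intronic transcripts had a lower median length and a slightly higher median FPKM. FPKM divides by length, so that these differences are not independent. The median length was lower in 12 of 12 libraries, with a mean difference of -79.2 ± 33.7 bases (SD over 12 libraries), 883 against 963 bases (sign permutation p = 0.000488, the smallest that 12 libraries allow). The median FPKM was higher in 11 of 12 libraries, by 0.0234 ± 0.0155, with 0.452 against 0.429 (sign permutation p = 0.000977). The base composition of the intronic loci was 43.5% G and C, against 41.7% in the introns that held them, 42.0% in all annotated introns, 45.3% in intergenic transcripts and 49.0% in annotated exons. Bases marked as repeats made up 35.0% of the loci, 35.3% of the introns that held them and 14.4% of exons.

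Most of the loci were seen in a single animal. There were 6738 loci (54.7%) assembled in 1 library, 3511 of them in a Tough and 3227 in a Tender animal, and 1507 (12.2%) assembled in at least 6 libraries, which are called recurrent here. Only 180 were assembled in all 12. Loci of 1 library had a median length of 794 bases and a median of 11.9 fragments per transcript, whereas loci of 12 libraries had 5186 bases and 24.95 fragments. Merging over more libraries lengthens a locus, so that length and recurrence are not independent. The median host level was 1.19 FPKM for the loci of 1 library and 0.869 FPKM for those of 12.

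Over loci, the intron had a median length of 17104 bases and the nearest annotated exon was at a median of 1817 bases. Over transcripts, which count a recurrent locus several times, these medians were 28766 and 3617 bases, and 9.11% of the transcripts lay less than 200 bases from an exon. Of the loci, 17.6% of those in 1 library, 21.1% of those in 2 to 5, 23.1% of those in 6 to 11 and 17.2% of those in all 12 did. The median annotated intron was 1648 bases, but longer introns offer more bases and a short intron cannot hold a transcript, so that these lengths are not compared. Within the intron, in the direction of the host gene, the intron was cut into 3 equal parts, and the midpoint of 36.7% of the loci was in the first, of 38.5% in the middle and of 24.8% in the last part. For the recurrent loci these shares were 40.9%, 40.1% and 18.98%. Each transcript was assigned to the shortest annotated intron that held it, and the annotated introns of a gene can overlap. First introns held 24.7% of the loci. They made up 33.3% of the intron bases of the same host genes when overlapping annotated introns were each counted in full, so that these shares are not compared. For recurrent loci the corresponding shares were 30.7% and 34.7%.

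Host genes were mostly genes of low to moderate level. The level of a gene is here the sum of FPKM times length over the transcripts that had 50% or more of their length within its exons, divided by its exonic length. Of 24499 annotated genes with introns, 15.7% held at least 1 intronic transcript. Among 11425 genes listed at 0 in the mean over libraries the share was 3.12%; it was 25.5% of 4076 genes up to 0.5 FPKM, 37.8% of 3240 genes between 0.5 and 2 FPKM, 26.8% of 3580 genes between 2 and 10 FPKM, 12.6% of 1587 genes between 10 and 50 FPKM and 10.2% of 591 genes above 50 FPKM. The share was thus highest in the genes between 0.5 and 2 FPKM. These genes also had the longest introns in sum, with a median of 30200 bases per gene, against 8496 bases in the genes above 50 FPKM, the shortest of the bins.

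Per length of intron the bin of 0.5 to 2 FPKM was the highest in 10 of 12 libraries, and the genes listed at 0 were the lowest in all 12. The exceptions were Tender 2, where the genes above 50 FPKM were highest, and Tender 5, where those of 2 to 10 FPKM were. The median over 12 libraries was 0.74 intronic transcripts per Mb of intron in genes listed at 0, with a range of 0.45 to 1.05. It was 3.30 in genes up to 0.5 FPKM, 5.90 (range 3.29 to 10.3) in genes between 0.5 and 2 FPKM, 4.83 (3.08 to 7.46) between 2 and 10 FPKM, 2.41 (1.62 to 3.22) between 10 and 50 FPKM and 3.08 (1.92 to 4.73) above 50 FPKM. The range of the genes at 0 was below that of every other bin, while the ranges of the genes at 0.5 to 2 and 2 to 10 FPKM overlapped. A gene listed at 0 is not always silent in these files: CKM, the muscle creatine kinase, was listed at 0 in 7 of 12 libraries and reached 4615 FPKM in another.

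**Figure D2:**
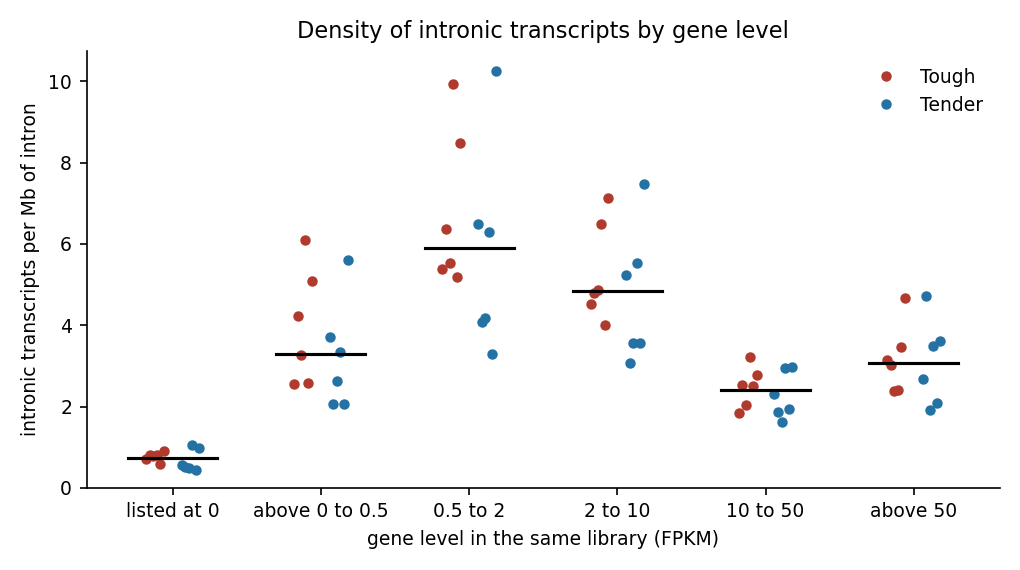
Intronic transcripts per Mb of intron (y axis) for genes grouped by their level in the same library in FPKM (x axis); points are the 12 libraries, red for Tough and blue for Tender, and bars are medians. The median rises from 0.74 in genes listed at 0 to 5.90 in genes between 0.5 and 2 FPKM and is 2.41 between 10 and 50 FPKM.

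In every library the hosts were expressed at a higher level than genes with introns but no intronic transcript. The median log2(FPKM + 0.5) of the hosts was 0.37 on average, and that of the other genes was -1, the value of a gene listed at 0. The difference of 1.37 ± 0.177 (SD over 12 libraries) had the same sign in 12 of 12 libraries (sign permutation p = 0.000488, the smallest possible). A member has to be transcribed to be assembled, so that the comparison is not independent of how members are found. A host was above 0.5 FPKM for 60.4 to 68.2% of the intronic transcripts of a library, and listed at 0 for 10.3 to 15.6%. The intronic transcript was above its host in FPKM in 31.5 to 37.3% of the cases.

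The level of an intronic transcript was weakly related to that of its host. Across the transcripts of a library the Spearman rho was 0.271 to 0.355, with a median of 0.314 over the 12 libraries (n = 2100 to 5413 transcripts, which are not independent, since transcripts of 1 gene share the host value). Its mean was 0.320 in Tough and 0.309 in Tender. Across animals the relation was taken for each locus by itself, with the locus at 0 where it was not assembled. This is another measure than the rho across transcripts, so that their sizes are not compared. For the 963 recurrent loci with a host above 0.5 FPKM the rho between locus and host over the 12 libraries had a median of 0.0701, with the quartiles at -0.204 and 0.363. The rho of the same loci with the number of intronic transcripts of the library had a median of 0.385.

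Dystrophin carried more recurrent loci than any other host gene. DMD on chromosome X (27028223-29650728), which encodes the protein that links the cytoskeleton of the muscle fibre to its membrane, held 162 loci, of which 44 were recurrent and 9 were assembled in all 12 libraries. They were assigned to 15 annotated introns, each to the shortest that held it, and some of these introns can overlap. The number of intronic DMD transcripts in the Tough libraries 1 to 6 was 79, 108, 88, 119, 55 and 120, and in the Tender libraries 1 to 6 it was 110, 42, 81, 43, 43 and 121. It was thus high and low in both groups, with 94.8 ± 25.6 in Tough and 73.3 ± 36.0 in Tender (exact permutation p = 0.245, n = 6 and 6, adjusted p = 0.633 over 10 hosts). DMD made up 1.07 to 3.37% of the intronic transcripts of a library. With 2.61 Mb of intron, it had 16.9 recurrent loci per Mb, against 1.16 over all genes with introns.

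The recurrent DMD loci were each weaker than the gene itself. The gene was at 3.43 ± 1.37 FPKM in Tough and 3.33 ± 1.96 FPKM in Tender (SD, n = 6), and its recurrent loci were at 0.0861 to 1.92 FPKM with a median of 0.345 FPKM. The highest was at chrX:29102535-29112375, with 1.28, 2.14 and 3.76 FPKM as the lowest, median and highest value in Tough and 0.740, 1.13 and 3.28 FPKM in Tender. The locus at chrX:28110526-28119273 had 1.70 ± 0.496 FPKM in Tough and 1.39 ± 0.511 FPKM in Tender, and the locus at chrX:28987316-28996893 had 1.32 ± 0.510 and 1.13 ± 0.530 FPKM. The groups overlapped at all 3 loci. Of the 14 recurrent DMD loci that passed the filter of a mean above 0.5 FPKM, 13 had a higher fitted mean in Tough and 1 in Tender, while 257 of all 475 tested loci were higher in Tough. The 14 share their gene and are not independent, and none passed the test; 1 of them, of 5569 bases, had an unadjusted limma p of 0.0427.

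RORA and ZBTB20 came next. RORA, a nuclear receptor of the circadian clock and of metabolism, held 25 recurrent loci (33.2 per Mb). Of these, 17 were assigned to an annotated first intron of 569 kb and 4 to another annotated first intron of 169 kb. These annotated introns can overlap. In the Tough libraries 1 to 6 RORA had 61, 67, 54, 69, 64 and 95 intronic transcripts, and in the Tender libraries 70, 39, 43, 44, 27 and 43. The Tender libraries were lower but for Tender 1. The mean was 68.3 ± 14.1 in Tough and 44.3 ± 14.1 in Tender (exact permutation p = 0.0130, n = 6 and 6), and the difference was not past the threshold after adjustment over the 10 hosts (adjusted p = 0.130). As a share of the intronic transcripts of the library it was 1.81 ± 0.297% and 1.45 ± 0.471% (exact permutation p = 0.141, n = 6 and 6). The level of the gene was 1.27 ± 0.390 FPKM in Tough and 1.21 ± 0.422 FPKM in Tender. Its strongest recurrent locus (chr1:110789388-110804148), named after its values were seen, was at 0.107 FPKM in Tough 1 and at 0.835 to 1.60 FPKM in the other Tough libraries, against 0.370 to 0.662 FPKM in Tender.

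ZBTB20, a zinc finger repressor, held 16 recurrent loci assigned to 7 introns, and LRIG2, a membrane protein of growth factor signalling, held 10. LRIG2 had the most per length, with 64.9 per Mb of intron. FILIP1L and LAMA2 held 9 each. LAMA2 encodes the laminin chain of the muscle basement membrane to which the dystrophin complex binds. AUTS2, ESRRG, LRMDA and PRKG1 held 8 each, and RBM20 and TTLL11 held as many. ESRRG, a nuclear receptor of oxidative muscle fibres, had 9 ± 5.73 intronic transcripts in Tough and 21.2 ± 18.2 in Tender (exact permutation p = 0.180, n = 6 and 6, adjusted p = 0.633). In none of the 10 hosts did the adjusted p of this count fall below 0.130.

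**Figure D3:**
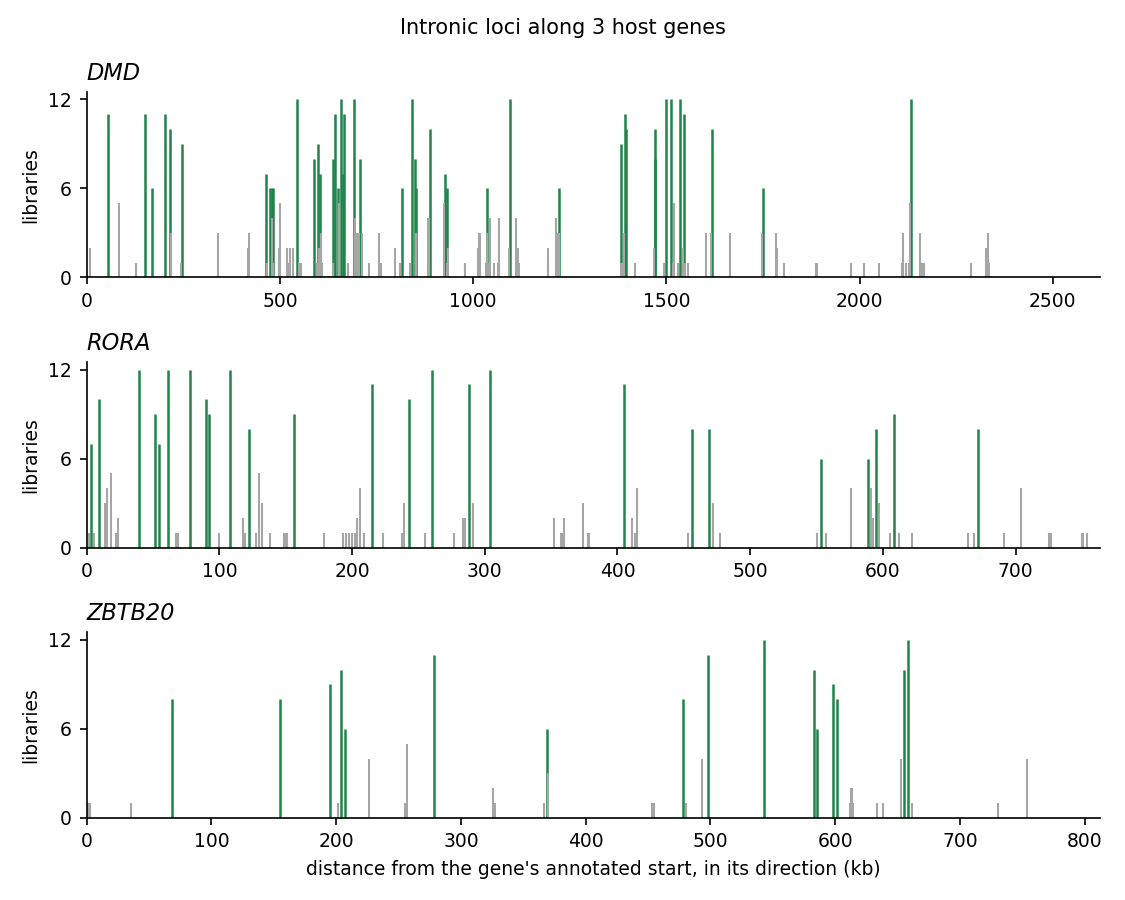
Intronic loci along DMD, RORA and ZBTB20, as the distance of the locus midpoint from the annotated start of the gene in kb (x axis) and the number of the 12 libraries in which the locus was assembled (y axis); green lines are loci of at least 6 libraries and grey lines the others. The 44 green lines of DMD are assigned to 15 annotated introns, and 17 of the 25 of RORA to 1 annotated first intron of 569 kb. A locus is assigned to the shortest annotated intron that held it, and annotated introns of a gene can overlap.

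Hosts were also described by lists of genes of muscle function, by counts only. Of 19 annotated genes of the dystrophin complex and of fibre adhesion, 11 held an intronic transcript and 3 held the 54 recurrent loci of the list, most of them DMD. Of 29 sarcomere and Z-disc genes, 11 were hosts and held 6 recurrent loci. Of 26 genes of calcium handling, 11 were hosts and held 5. Of 26 genes of splicing and RNA binding, 15 were hosts and held 12, of which 8 were in RBM20, the splicing regulator of titin. Of 24 genes of mTOR, insulin and circadian control, 15 were hosts and held 7. Of 30 genes of energy metabolism, 10 were hosts and held 3. Of 25 genes listed as hosts of intronic microRNAs, 10 held transcripts and 4 recurrent loci. Of 25 proteolysis genes, 8 were hosts and held no recurrent locus, nor did the 2 hosts among 17 genes of the extracellular matrix. These lists had only 1.59 and 1.84 Mb of intron, so that nothing is read from the absence. Per Mb of intron, recurrent loci numbered 7.71 for the dystrophin complex, 3.10 for the sarcomere, 2.96 for splicing and 2.89 for mTOR. They numbered 1.74 for calcium handling, 1.24 for energy metabolism and 0.93 for microRNA hosts. Over all genes with introns there were 1.16, and 15.7% of these genes were hosts.

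None of the tested loci of these lists was called. The median log2 difference between Tough and Tender was -0.31 over 25 sarcomere loci, 0.02 over 3 loci of calcium handling, 0.22 over 18 loci of the dystrophin complex, 0.39 over 5 of energy metabolism, -0.04 over 17 of splicing, 0.69 over 2 of proteolysis, 0.74 over 4 of mTOR and circadian control and -0.73 for the single locus of the microRNA hosts. Over all 475 tested loci it was 0.05, and over 9129 annotated genes it was -0.04.

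Recurrent loci of the muscle hosts were mostly below the gene in level. In TRDN, which encodes triadin of the junction between the calcium store and the cell membrane, a locus in intron 21 (chr1:39461277-39462121) had 25.6 ± 16.4 FPKM in Tough and 31.2 ± 33.6 FPKM in Tender, against 119 FPKM for the gene. A second locus of the same intron (chr1:39462261-39465115) had 8.87 ± 9.18 and 20.6 ± 27.1 FPKM. In ASPH, which shares its locus with junctin, a locus in intron 5 had 7.28 ± 8.72 and 2.89 ± 7.04 FPKM. The gene was at 6.78 FPKM in Tough and 9.21 FPKM in Tender. The mean of this locus was above the gene in Tough, but its Tough median, 5.12 FPKM, was not. It was assembled in 3 libraries of each group and lay at 0 bases from the nearest annotated exon. The first intron of RBM20 held 3 of the named loci, of which the highest (chr14:121085584-121087215) had 0.228, 2.31 and 3.69 FPKM as the lowest, median and highest value in Tough and 0.269, 1.86 and 4.75 FPKM in Tender, with the gene at 4.13 FPKM. The other 2 had 1.57 ± 0.825 against 1.63 ± 1.21 FPKM and 0.853 ± 0.434 against 1.07 ± 0.919 FPKM.

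Sarcomere genes of very high level had intronic loci of low level. A locus in intron 27 of NEB, the nebulin ruler of the thin filament, had 0.817 ± 0.784 FPKM in Tough and 0.811 ± 1.10 FPKM in Tender, against 130 FPKM for the gene. A locus in intron 44 of TTN, titin, had 1.41 ± 2.34 and 1.91 ± 2.38 FPKM, against 78.7 FPKM. The NEB locus was absent from 5 libraries and the TTN locus from 6.

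Further recurrent loci lay in genes of metabolism and of its control. PFKFB1, an enzyme that sets the level of a glycolytic regulator, held a locus in intron 11 with 1.82 ± 1.79 FPKM in Tough and 2.52 ± 1.98 FPKM in Tender. The coactivators of mitochondrial genes PPARGC1A and PPARGC1B held 1 locus each in intron 1, with 0.301 ± 0.339 against 0.228 ± 0.541 FPKM and 0.104 ± 0.127 against 0.0354 ± 0.0418 FPKM. TEF, a clock-controlled transcription factor, had 1.25 ± 0.868 and 0.422 ± 1.03 FPKM in intron 3, and PER1, a core clock gene, had 0.574 ± 0.742 and 0.484 ± 0.756 FPKM in intron 2. IGF1R, the receptor of insulin-like growth factor, had 0.272 ± 0.176 and 0.248 ± 0.250 FPKM. Of the microRNA hosts, MIB1 held 2 loci in intron 10, the higher at 0.245 ± 0.0441 and 0.226 ± 0.152 FPKM, and ARPP21 held 1 in intron 20 at 0.363 ± 0.434 and 0.197 ± 0.235 FPKM. The groups overlapped at each of these loci. The TEF locus had a log2 difference of 1.18, with an unadjusted limma p of 0.0453 and an adjusted p of 1.00. With the level from every transcript base over the locus the difference turned to -1.39, with an unadjusted limma p of 0.00531 and an adjusted p of 1.00.

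The FPKM scale was dominated by a few short loci. Of the 26 loci with a mean above 1000 FPKM, 20 were shorter than 200 bases and 24 (92.3%) held a run of at least 20 A or T. Transcripts under 200 bases at loci with such a run supplied 92.6 to 98.4% of FPKM times length of the intronic transcripts of a library. Therefore the share of intronic transcripts in the FPKM times length of all transcripts, 21.0 ± 7.40% in Tough and 19.99 ± 5.28% in Tender (exact permutation p = 0.773, n = 6 and 6), mostly describes these loci. Per 1000 bases, 9.55% of windows of the introns that held a locus and 8.86% of windows of all annotated introns contain such a run (20 or more A, or 20 or more T, on the plus strand), and it was present in 10.1% of the 3320 loci of about that length and in 17.7% of the 130 loci shorter than 200 bases.

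At the GPX6 locus shown above, with a run of 56 A in 71 bases, the level was 712203, 1411191 and 3290960 FPKM as the lowest, median and highest value in Tough and 923770, 1628601 and 5755953 FPKM in Tender, from 1733 to 4497 fragments per library. The gene, a glutathione peroxidase, was listed at 0. At the ESX1 locus, in a homeobox gene of the germ line and placenta also listed at 0, the mean was 1207131 FPKM from 155 to 391 fragments. The PLCB1 locus had a mean of 930600 FPKM from 217 to 490 fragments. An FPKM divides by the length that a fragment can occupy, which is very small for transcripts shorter than the fragments themselves, so that these values are not set beside those of longer transcripts.

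Further loci of this kind that were assembled in all 12 libraries were in AKR1D1 intron 1 (50 bases, a run of 30), ATP6V0A2 intron 4 (57 bases, a run of 32), CHL1 intron 17 (202 bases, a run of 38), NBEAL1 intron 2 (388 bases, a run of 33) and PIBF1 intron 17 (504 bases, a run of 28). At PIBF1 the level ran from 3.07 to 631362 FPKM within the Tough group, and at NBEAL1 from 3.18 to 116899 FPKM within the Tender group. The groups overlapped at each of these loci and at the 3 shown above, and every adjusted p was 1.00.

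**Figure D4:**
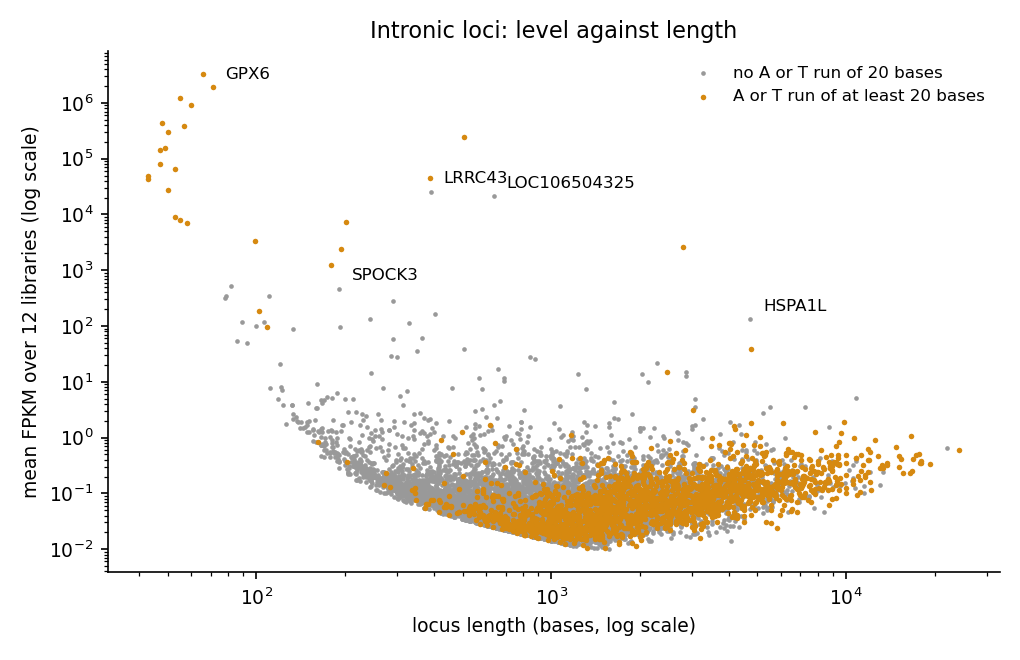
Mean FPKM over 12 libraries (y axis, log scale) against length in bases (x axis, log scale) for the 12325 intronic loci; orange points hold a run of at least 20 A or T, grey points do not. Of the 26 loci above 1000 FPKM, 24 are orange; LRRC43 and LOC106504325 are the 2 grey exceptions.

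Counted in fragments, 2 other loci stood out. The locus in intron 12 of LRRC43 (chr14:30530525-30530916, 392 bases), the first sequence of the second kind above, was assembled in all 12 libraries. It was at 26619, 23223, 29015, 35862, 28047 and 30407 FPKM in the Tough libraries 1 to 6 and at 29197, 28962, 16312, 18411, 20603 and 22211 FPKM in the Tender libraries 1 to 6. Of the Tender libraries, 4 were below all Tough libraries and Tender 1 and 2 were within their range. The mean was 28862 ± 4217 FPKM in Tough and 22616 ± 5389 FPKM in Tender, a log2 difference of 0.37 ± 0.190 (SE) with an unadjusted limma p of 0.0731 and an adjusted p of 1.00. LRRC43 itself was listed at 0 in all libraries. The estimated fragments at this locus reached 490715, and were 4505 in Tough 3, where 2 overlapping transcripts were assembled. With the level taken from the estimated fragments the log2 difference was -0.64, of opposite sign.

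The locus in intron 2 of LOC106504325 (chr7:10867705-10868342, 638 bases) was the only higher one in fragments, with 511773 to 951882 in the 8 libraries that listed it. Its level was 36561, 32821, 33459 and 39987 FPKM in Tough 1, 2, 3 and 5 and 24871, 27234, 29469 and 32040 FPKM in Tender 3, 4, 5 and 6. In Tough 4 and 6 and Tender 1 and 2 no transcript was listed there. The uncharacterised host was listed at 0. Both loci were chosen after their values were seen, except that LRRC43 is also named by 3 rules. They aligned to no annotated transcript and not to the mitochondrial genome under the criteria used. That search covered only the longest transcript of each annotated gene and the mitochondrial genome, so that a copy of any other sequence could not be found. What these sequences are, and whether their RNA came from these introns, was not tested. The reason for the missing listings was not tested either.

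These 2 loci held 71.3 to 92.0% of all fragments of the intronic transcripts. With them, intronic transcripts held 0.874 to 2.89% of the estimated fragments of a library, and without them 0.163 (Tender 2) to 0.423% (Tender 6). Without them the share was 0.291 ± 0.0431% in Tough and 0.267 ± 0.101% in Tender (exact permutation p = 0.617, n = 6 and 6).

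Some further loci of high level aligned to other genes or to the mitochondrial genome, and were likewise chosen after their values were seen. The SPOCK3 locus, whose sequence is shown above, had 341, 417 and 500 FPKM as the lowest, median and highest value in Tough and 310, 512 and 718 FPKM in Tender, while SPOCK3, a proteoglycan of the nervous system, was listed at 0. Reads of mitochondrial RNA and of this copy cannot be told apart where the bases are the same. In METTL8 a locus of 404 bases aligned in full to ZC3H10 with an identity of 96.8%. It was at 1212 FPKM in Tough 3 and at 35.2 to 79.7 FPKM in the other 5 Tough libraries, against 75.5 ± 18.2 FPKM in Tender. In F8, a clotting factor gene, a locus of 881 bases on the strand of the gene aligned over 688 bases without a mismatch to F8A1. It had 27.6 ± 5.63 FPKM in Tough and 24.6 ± 7.27 FPKM in Tender. In TXNDC12 a locus opposite to the gene aligned over 2110 bases to KTI12, at 8.98 ± 1.55 and 10.5 ± 2.53 FPKM. The F8 and TXNDC12 loci lay at 0 bases from the nearest annotated exon, so that transcripts of a gene annotated there and intronic RNA cannot be told apart. In all, 59 loci of at least 200 bases aligned to another annotated gene.

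Without such a match, a locus of 4735 bases in intron 1 of HSPA1L, a gene of the HSP70 chaperone family, had 143 ± 55.5 FPKM in Tough and 122 ± 24.2 FPKM in Tender. HSPA1L itself had a mean of 1.67 FPKM. The locus lay at 0 bases from the nearest annotated exon, so that transcripts of a gene annotated there and intronic RNA cannot be told apart. There were 2 loci in intron 8 of CD99, a cell surface gene placed on chromosome Y here. They had 39.6 ± 17.8 against 32.8 ± 13.2 FPKM and 18.7 ± 5.91 against 15.7 ± 4.42 FPKM. A locus in intron 2 of TEX14, a germ cell gene listed at 0, had 7.57 ± 4.82 and 12.8 ± 11.11 FPKM.

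Splicing within an intronic transcript was rare and mostly not shared between animals. Only 339 transcripts (0.794%) had more than 1 exon, of which 147 lay on the strand of the host and 192 opposite to it. They used 208 distinct junctions. Of these, 175 (84.1%) had the ends GT-AG and 12 (5.77%) GC-AG, and 12 were found in at least 6 libraries while 137 were found in 1. The most recurrent junction of a named locus, in 11 libraries, joined the 2 exons of a transcript in intron 12 of SPAG16, a gene of the ciliary axoneme. Its donor and acceptor are shown, with exon bases in capitals, for the intron at chr15:116322394-116332834 on the plus strand.
SPAG16 donor: AGAACCGACTTGGAGgtaaaggg
SPAG16 acceptor: tttcccagCCTCTGTTCTCTAGG

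This SPAG16 locus was at 1.52 ± 0.329 FPKM in Tough and 1.149 ± 0.822 FPKM in Tender although the gene was listed at 0, and 1131 of its bases aligned with an identity of 92.6% to LOC110259374. In intron 1 of GTDC1 a junction with the ends GT-AG was found in 5 libraries, and the locus had 0.994 ± 1.12 and 0.483 ± 0.755 FPKM. In intron 2 of AKAIN1 a junction over 30 bases was found in 6 libraries, opposite to the gene, with 0.895 ± 0.460 and 0.994 ± 0.782 FPKM. The AKAIN1 locus lay at 0 bases from the nearest annotated exon. In SLC45A2 the locus was also opposite to the gene, at 0.821 ± 0.719 and 0.896 ± 1.00 FPKM; 99.4% of its bases are marked as repeats, and its junction, in 4 libraries, has the ends AA-TG, so that its strand rests on ends that are not canonical. The YPEL2 locus (23.4 ± 37.3 and 52.8 ± 44.9 FPKM) was spliced in 1 library only. The number of spliced transcripts was 35, 36, 25, 32, 38 and 30 in the Tough libraries 1 to 6 and 20, 24, 27, 30, 20 and 22 in the Tender libraries. The groups overlapped, and the means were 32.7 ± 4.72 and 23.8 ± 4.02 (exact permutation p = 0.0130, n = 6 and 6; adjusted p = 0.0649 over 5 further library measures).

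No intronic locus was called as different between the groups. The 475 loci with a mean above 0.5 FPKM were fitted with limma together with 9129 annotated genes, with a call set at the 0.05 level before adjustment, the 0.1 level after it and a 1.5-fold difference. No feature of the 9604 was called (0%). Before adjustment 15 loci (3.16% of those tested) were past the 0.05 level, against 2.46% of the genes and 2.5% of all features. Of all features, 0.823% were past this level and higher in Tough, and 1.68% past it and higher in Tender. Of the 15 loci 13 were higher in Tough and 2 in Tender, but 8 of the 13 were assembled in no Tender library and passed the filter through Tough alone, so that nothing is read from this split. Of the 475 loci, 228 were recurrent.

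The smallest p belonged to a locus in intron 6 of SUMF2, a gene of sulfatase modification, at chr3:16834141-16834409 on the opposite strand. It was at 22.7, 5.32, 10.9, 11.3, 9.89 and 24.95 FPKM in the Tough libraries 1 to 6, at 7.81 FPKM in Tender 6 and not assembled in the other Tender libraries. The log2 difference was 4.02 ± 0.684 (SE), with an adjusted limma p of 0.345 and an exact permutation p of 0.00433 on the FPKM values. From 14.7 to 96.2 fragments supported it where it was assembled, and the gene was at 0 to 0.309 FPKM. The second was in intron 15 of MPRIP, a regulator of myosin phosphatase, at chr12:61090641-61091294, 166 bases from an exon. It was at 2.58, 4.51, 3.14, 4.25, 6.14 and 2.34 FPKM in the Tender libraries 1 to 6, at 3.41 FPKM in Tough 5 and not assembled in the others. The log2 difference was -2.55 ± 0.488 (SE), with an adjusted limma p of 0.509 and an exact permutation p of 0.00866. In both loci 1 animal of the low group was within the range of the other group.

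The other loci named by the rule on small p were less clear. Higher in Tough were loci in SSBP2 intron 4 (4.41 ± 2.75 against 0.932 ± 2.28 FPKM, exact permutation p = 0.0541) and ELF2 intron 3 (1.31 ± 0.328 against 0.809 ± 0.637 FPKM, p = 0.145). Higher in Tender were loci in PLPP7 intron 1 (15.1, 17.4 and 21.3 FPKM in 3 Tough libraries and not assembled in the others, against 18.3 ± 7.46 FPKM, exact permutation p = 0.110), PDE4C intron 14 (1.51 ± 2.84 against 3.799 ± 2.46 FPKM, p = 0.156), PRDM2 intron 9 (0.838 ± 0.616 against 1.34 ± 0.385 FPKM, p = 0.115) and GHR intron 1 (0.904 ± 1.07 against 2.41 ± 1.70 FPKM, p = 0.0801). These exact permutation p are unadjusted, and every adjusted limma p was 1.00. GHR is the receptor of growth hormone. The groups overlapped at each of these loci.

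**Figure D5:**
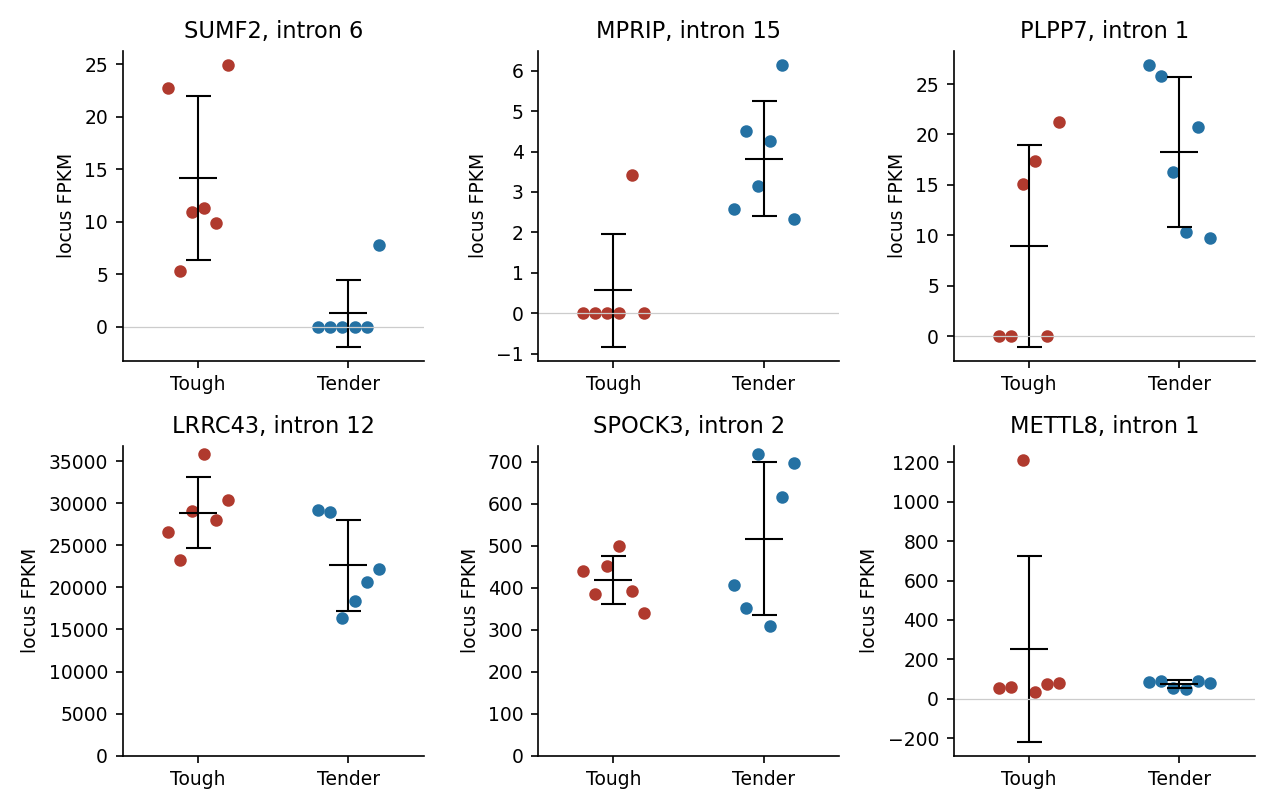
Level in FPKM at 6 intronic loci in the Tough and Tender libraries; points are animals and bars the mean ± SD of 6. Tough animals are at 5.32 to 24.95 FPKM at SUMF2, where 5 Tender animals are at 0, and 5 Tough animals are at 0 at MPRIP; at LRRC43, SPOCK3 and METTL8 the groups overlap, with 1 Tough animal at 1212 FPKM at METTL8.

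Intronic RNA was also set against the level of the host in each animal. The intronic level of a host was the sum of FPKM times length in kb over its intronic transcripts, and the log2 ratio to the host level was fitted with limma for the 587 hosts where both means were above 0.5. None was called (0%), and 17 (2.9%) were past the 0.05 level before adjustment, 14 with a higher ratio in Tough and 3 in Tender. Of all 587 hosts, 352 had a higher ratio in Tough and 235 in Tender, with a median log2 difference of 0.12. The smallest p was that of SRPK2, a kinase of splicing factors, with an intronic level of 1.17 to 2.07 in the Tough animals and 0 to 0.968 in the Tender animals while the gene was at 0.841 ± 0.392 and 0.832 ± 0.235 FPKM (log2 ratio 1.13 ± 0.329, SE). The lowest Tough animal (1.17) was above the highest Tender animal (0.968) in intronic level, but SRPK2 was picked for its p among the 587 hosts. How many other hosts separate in this way was not counted, so that nothing is read from it. SFXN5 (2.39 ± 0.729) and SH3PXD2A (1.29 ± 0.465) followed, with SFXN5 itself listed at 0 in all Tough animals. Lower in Tough was the ratio of TBC1D16 (-1.26 ± 0.469), PLPP7 (-2.83 ± 1.22) and SUN1 (-2.92 ± 1.44), SUN1 being listed at 0 in all Tender animals. The adjusted limma p was 0.999 for all 6 hosts.

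The tissue label was checked on marker genes. Of the muscle markers, CKM was listed at 0 in 7 libraries, DES in 5, TNNI2 in 3 and TNNC2 in 2, whereas MYLPF, the fast myosin light chain, was at 5615 to 14432 FPKM and MYL1 at 5756 to 9808 FPKM in all 12 libraries. Of the markers of other cell types, DCN of fibroblasts was at 24.4 to 108 FPKM, FABP4 of adipocytes at 8.74 to 23.9 FPKM, PECAM1 of endothelium at 5.91 to 19.3 FPKM and HBB of red blood cells at 124 to 349 FPKM, whereas ADIPOQ of adipocytes was listed at 0 in all libraries. Means in Tender and Tough were further apart for HBB (294 and 164 FPKM), ALAS2 of red blood cells (1.65 and 0.829 FPKM), CD163 (1.13 and 0.594 FPKM) and CD68 (0.991 and 0.155 FPKM) of macrophages and COL1A1 of fibroblasts (11.5 and 19.3 FPKM). CD68 was listed at 0 in 8 of 12 libraries, and CSF1R of macrophages was at 3.61 FPKM in Tender and 3.33 FPKM in Tough. The part of these markers in the differences above was not tested.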

How the data were processed

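RNA of 12 loin muscles was sequenced in pairs. Per the labels and the study's methods, the authors checked reads with FastQC, used Trim Galore for trimming and TopHat2 2.1.0 for mapping to Sscrofa11.1, and assembled each library separately with Cufflinks 2.2.1. The deposited files give exons, strand and FPKM with confidence bounds per transcript; the deposited score column was not used.

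Transcripts were classified against RefSeq release 106 of Sscrofa11.1; transcripts on scaffolds (331 to 401 per library) were left out. Fragments and depth were estimated from the FPKM confidence bounds, and 86.6% of the estimates were whole within 2%. A locus or gene at 0 may be a failed estimate. Loci and genes were fitted together with limma 3.58.1 (R 4.3.3) on log2(FPKM + 0.5), so that differences of low features are understated; features needed a mean above 0.5 FPKM, and the Benjamini-Hochberg adjustment covered all features. Library values were compared with two-sided exact permutation tests (smallest p 0.00216). Copies were sought with blastn 2.17.0. Scripts ran in Python 3.11.15 and were tested on simulated data.

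Members, lists and tests were chosen with earlier results of these data known. Named loci, with hosts of a gene symbol, were the 10 of highest mean FPKM in all 12 libraries, the 10 hosts with most recurrent loci, the 5 loci of smallest p in each direction among those of at least 1 FPKM and 6 libraries, the 6 strongest recurrent spliced loci, up to 3 recurrent loci per list, and the 3 hosts of smallest ratio p in each direction. Others are named as chosen after their values were seen. Alternatives covered the pseudocount, filters, scaling, the locus level, left-out libraries and the animal number as a block. Animals with the same number did not deviate together (r of -0.153 to 0.0112). COL6A1, COL6A2 and AKT1 had no match in the annotation. Some items that these rules select are not reported here.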

Additional observations from a re-analysis of the deposited data

Results flagged for a closer look

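Within groups of 6 libraries, 72 groups of values were examined for a single library far from the others, and 8 were found, where chance gives about 1 in 20. At the RORA locus on chromosome 1 (start 110789388) Tough 1 was at 0.107 FPKM with the other Tough libraries at 0.835 to 1.60 FPKM, and Tender 1 was at 0.662 FPKM with the others at 0.370 to 0.405 FPKM. At HSPA1L Tender 6 was at 171 FPKM, with the others at 111 to 113 FPKM. At CHL1 Tender 3 was at 33.5 FPKM, with the others at 5366 to 15908 FPKM. At the RBM20 locus starting at 121085584 Tough 5 was at 0.228 FPKM, with the others at 1.76 to 3.69 FPKM. At METTL8 Tough 3 was at 1212 FPKM, with the others at 35.2 to 79.7 FPKM. At NBEAL1 Tender 5 was at 3.18 FPKM, with the others at 42911 to 116899 FPKM. At ESX1 Tough 6 was at 541157 FPKM, with the others at 1164794 to 1465266 FPKM. The reasons were not tested.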

How the results depend on the processing

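Tough minus Tender in the number of transcripts was -25.2, and in their median length -20.9 bases, when only transcripts of at least 0.5 FPKM were kept; both were positive otherwise. The median rank correlation with the host was 0.349 with hosts above 0.5 FPKM only. Loci at an unadjusted p ≤ 0.05 numbered 234 with no filter on the mean, 30 with every transcript base, 29 with array weights, 8 among recurrent loci and 4 by the exact Wilcoxon rank-sum test, and hosts 81 with no filter on the intronic level. Leaving out 1 library gave 0 to 1 loci called (1 without Tough 5 and 1 without Tender 6), 9 to 22 loci (9 without Tender 3) and 13 to 29 hosts (29 without Tender 6) at an unadjusted p ≤ 0.05, and a share of FPKM times length that differed by -1.37 (without Tough 2) to 2.73 percentage points. With the replicate block, 0 loci were called and 21 had an unadjusted p ≤ 0.05; the animals share only a number. The causes were not tested. An adjustment over intronic loci alone was not run. The levels from estimated fragments and loci of at least 300 bases were chosen after seeing the data.

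Of 47 tested named loci, 21 changed sign under at least 1 setting. The log2 difference became 0.0046 at TRDN (39462261), 0.085 at RBM20 (121087506) and 0.014 at SLC45A2 with a pseudocount of 0.1, and 0.034 at SLC45A2 with another scaling. With every transcript base it became -1.39 at TEF, -0.19 at AKAIN1 and 0.10 at TTN. With array weights it became -0.33 at AKAIN1, -0.17 at PIBF1, -0.14 at PER1, 0.17 at ATP6V0A2, -0.19 at RBM20 (121081272) and 0.070 at PLCB1. From estimated fragments it became -0.28 at HSPA1L, -0.64 at LRRC43, 0.037 at RBM20 (121085584), -0.35 at METTL8, 0.060 at PLCB1 and 0.0036 at AKR1D1. Leaving out 1 library moved it from -0.95 to 1.00 at TRDN (39461277), -1.12 to 0.30 at TRDN (39462261), -0.19 to 0.23 at AKAIN1, -1.88 to 2.37 at LOC106504325, -0.0050 to 0.27 at HSPA1L, -0.76 to 4.01 at PIBF1, -0.023 to 0.28 at PER1, -0.16 to 1.61 at CHL1, -0.69 to 0.14 at ATP6V0A2, -0.20 to 0.27 at RBM20 (121081272), -0.37 to 0.30 at RBM20 (121085584), -0.35 to 0.16 at RBM20 (121087506), -0.058 to 0.50 at NEB, -0.30 to 0.72 at METTL8, -0.24 to 0.30 at SLC45A2, -0.29 to 0.26 at PLCB1 and -0.12 to 0.24 at ESX1.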
